A study of Mus musculus with 8 samples.

Results

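The enzymes that convert cholesterol into bile acids were followed here through 10 genes, Cyp7a1, Cyp8b1, Cyp27a1, Cyp7b1, Hsd3b7, Akr1d1, Akr1c14, Amacr, Acox2 and Scp2, out of 22180 genes that the array annotation names alone on at least 1 probe set. The genes were chosen for their place in the pathway, with earlier results of these data known. Each had exactly 1 probe set that carried its symbol and no other, so no choice between probe sets was needed. Primary hepatocytes from male C57Bl6J mice spent 6 h in culture with DMSO, the solvent, with glucagon at 100 nM, with GW4064 at 2 µM, or with both agents. All groups shared a low-glucose medium with 100 nM dexamethasone, a synthetic glucocorticoid. Glucagon signals fasting to hepatocytes through cyclic AMP. GW4064 is a man-made ligand that activates FXR, the bile acid receptor encoded by Nr1h4. There were 8 arrays, 1 for each treatment in each of 2 experiments, and the cells of 3 mice were pooled for an experiment, so n = 2 in every group. Isolated hepatocytes have no intestine beside them, and the intestinal arm of bile acid feedback is absent from this model. All values are log2 signals, on which a difference of 1 is a doubling, and levels of different probe sets are not compared.

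Bile acids are made from cholesterol in hepatocytes along a classical route, which Cyp7a1 opens, and an alternative route, which Cyp27a1 opens and Cyp7b1 continues. Hsd3b7, Akr1d1 and Akr1c14 then remodel the sterol ring, and Amacr, Acox2 and Scp2 shorten the side chain in peroxisomes. In liver, bile acids restrain their own synthesis through FXR, which induces the small heterodimer partner (gene Nr0b2), a repressor of Cyp7a1 and Cyp8b1.

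The 8 arrays had medians of 3.42 to 3.57. The GW4064 array of experiment 2 stood apart: the median of 1405 olfactory and vomeronasal receptor probe sets, a low-signal set, was 3.25 there and 2.95 to 2.98 on the others, and its correlation with the others over the 13844 tested genes was 0.975 to 0.985. A probe set was tested when it exceeded the 40th percentile of its array, 3.13 to 3.27, on at least 2 arrays, and values near that level are called dim. Of 12 hepatocyte markers 11 cleared the filter, and Alb lay between 12.97 and 13.11. Of 6 glucagon check genes all 6 rose with glucagon, where 1.32% of all tested genes were called. G6pc, the last enzyme of glucose release, rose with glucagon by 4.08 (SE 0.15, 4 arrays with against 4 without, limma adjusted p = 0.000131) and Pck1, the gluconeogenic carboxykinase, by 5.15 (SE 0.28, adjusted p = 0.000571). Abcb11, the bile salt export pump and an FXR target, differed by 0.59 with GW4064 (SE 0.21, adjusted p = 1.00), Nr0b2 by 0.34 (SE 0.12) and Nr1h4 by -0.20 (SE 0.15), and none of these passed. Among 5 tested FXR-induced check genes 0 passed with GW4064 by limma and 4 had an unadjusted p under 0.05, with a median of 0.59. Of all tested genes 0% passed and 1.56% had such a p.

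Of the 10 genes 9 were tested, and none passed in any comparison over all 8 arrays. The side-chain oxidase Acox2 was lower on all 4 arrays with glucagon than on all 4 without it, by 0.20. Such a gap without overlap was seen in 6.88% of all tested genes, and its reverse in 6.07%. Akr1c14 and Scp2 were higher with glucagon in both experiments, by 0.72 and 0.51 on average, but they also differed by 0.80 and 0.77 between the experiments. With GW4064 no tested member was higher in all 4 within-experiment comparisons and none was lower, where 5.66% and 8.05% of all tested genes were. The first enzyme of the classical route, Cyp7a1, was too dim to be tested. The plot of member signals by array shows every value.

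**Figure D1:**
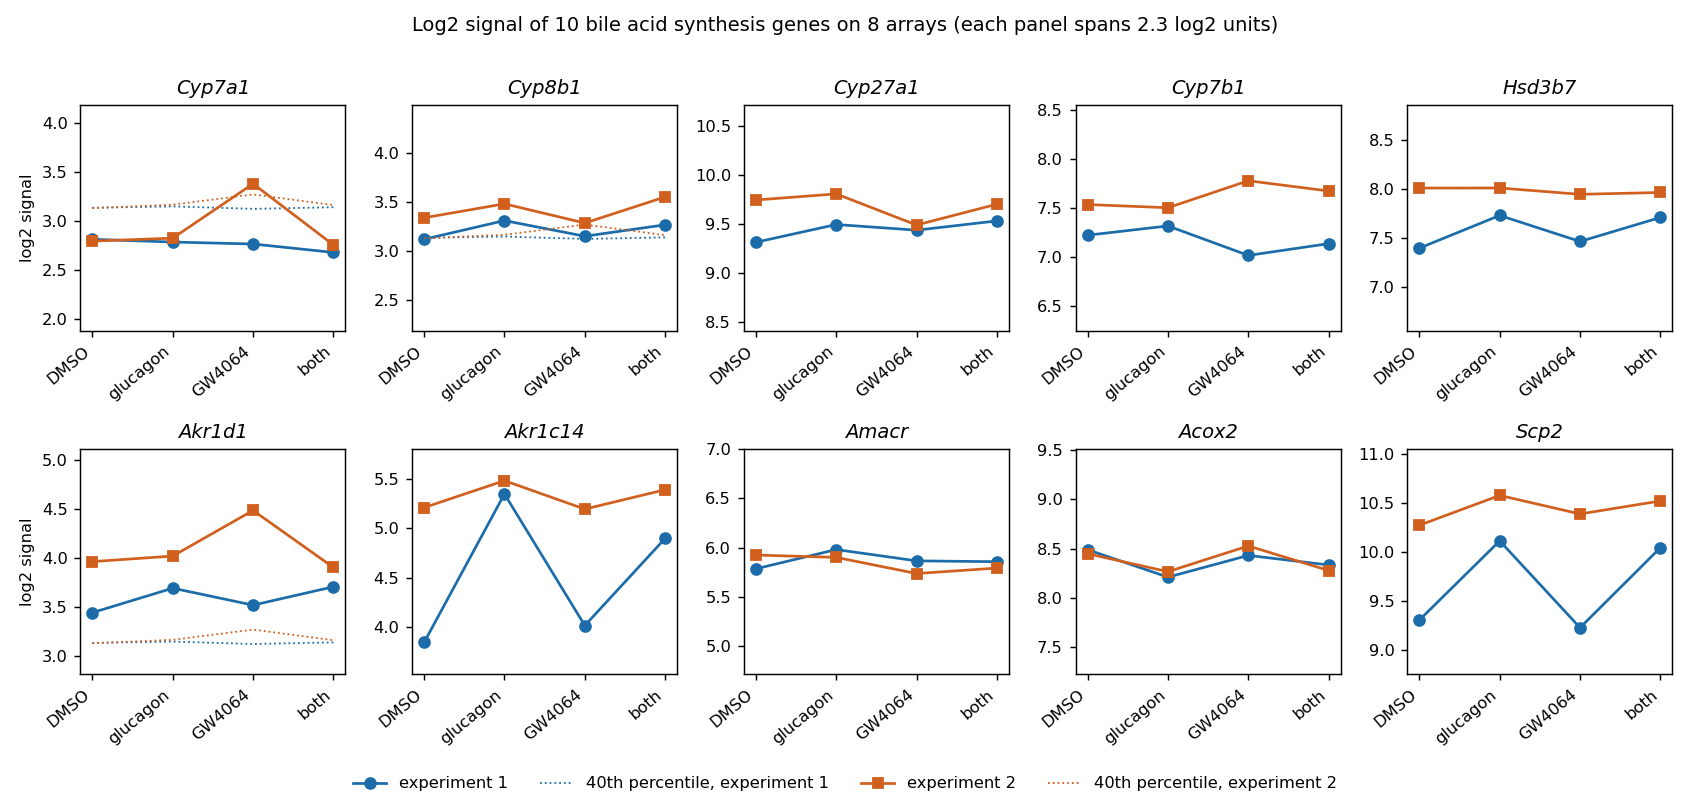
Log2 signal (vertical axis) of the 10 bile acid synthesis genes on each array, by treatment (horizontal axis), with experiment 1 as blue circles and experiment 2 as orange squares; each point is 1 array, lines join arrays of 1 experiment, and dotted lines are the 40th percentile of each array where it falls in the panel. Cyp7a1 lies under the dotted lines on 7 of 8 arrays, and Akr1c14 and Scp2 are lowest on the 2 arrays of experiment 1 without glucagon.

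The classical route begins with Cyp7a1, the rate-limiting cholesterol hydroxylase. In experiment 1 its signal was 2.82 with DMSO, 2.79 with glucagon, 2.77 with GW4064 and 2.68 with both (probe set 17423051), and in experiment 2 it was 2.80, 2.83, 3.38 and 2.76 in the same order. The signal was at or below the 40th percentile on 7 arrays and above it only on the GW4064 array of experiment 2, the array that stood apart. These values put no size on any change of Cyp7a1. Cyp8b1, the hydroxylase that sets the proportion of cholic acid, was dim too, at 3.12, 3.31, 3.15 and 3.27 in experiment 1 and 3.34, 3.48, 3.29 and 3.56 in experiment 2 (probe set 17532409). It was above the 40th percentile on 7 arrays, and the arrays with and without glucagon overlapped. Within the experiments Cyp8b1 was higher with glucagon in all 4 comparisons. Its pooled difference with glucagon was 0.18 (SE 0.11, 95% interval -0.08 to 0.44, adjusted p = 0.519). With the experiment as a block the interval was 0.001 to 0.356 (SE 0.07, adjusted p = 0.221). The difference with GW4064 was 0.00 (SE 0.11, interval -0.26 to 0.26). A dim probe set can understate a change, so these intervals bear on the signal and not on the transcript.

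The alternative route begins with Cyp27a1, the mitochondrial sterol hydroxylase, whose signal was far above background. In experiment 1 it was 9.31 with DMSO, 9.49 with glucagon, 9.43 with GW4064 and 9.53 with both (probe set 17214368). In experiment 2 the corresponding values were 9.74, 9.80, 9.49 and 9.70. The gene was higher with glucagon in all 4 within-experiment comparisons, by 0.06 to 0.21, while the 2 groups of arrays overlapped. The pooled difference was 0.14 (SE 0.13, adjusted p = 0.683), and its 95% interval ran from 0.889-fold to 1.36-fold. With the experiment as a block the SE was 0.09 and the adjusted p 0.427. With GW4064 the difference was -0.05 (SE 0.13), with an interval of 0.781-fold to 1.2-fold.

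Cyp7b1, the oxysterol hydroxylase of the same route, had signals of 7.22, 7.32, 7.02 and 7.14 in experiment 1 against 7.54, 7.50, 7.78 and 7.68 in experiment 2 (DMSO, glucagon, GW4064 and both; probe set 17404245). Every array of experiment 2 was above every array of experiment 1. The GW4064 difference had opposite signs in the experiments, at -0.21 and -0.18 in experiment 1 and 0.24 and 0.17 in experiment 2 (without and with glucagon), and the mean was 0.01 (SE 0.20). For glucagon the pooled difference was 0.02 (SE 0.20, interval 0.727-fold to 1.41-fold). With the experiment as a block the SE was 0.11 and the adjusted p 0.941.

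Among the ring-modifying enzymes, Hsd3b7, the dehydrogenase that acts on the products of both routes, had signals of 7.40 with DMSO, 7.73 with glucagon, 7.47 with GW4064 and 7.71 with both in experiment 1 (probe set 17483471). In experiment 2 the signals were 8.01, 8.01, 7.95 and 7.96. Thus the glucagon difference was 0.29 on average in experiment 1 and 0.01 in experiment 2. Over all arrays it was 0.15 (SE 0.18, adjusted p = 0.759). With the experiment as a block the SE was 0.09 and the adjusted p 0.397. Akr1d1, the reductase that bends the sterol ring, was close to dim, at 3.45, 3.70, 3.52 and 3.71 in experiment 1 and 3.97, 4.02, 4.49 and 3.91 in experiment 2 (probe set 17457330). Its highest value came from the GW4064 array of experiment 2. The glucagon difference was -0.02 (SE 0.23) over all arrays and 0.22 (SE 0.16, adjusted p = 0.515) without that array, and its sign also turned without the DMSO array of experiment 2 (0.11), the glucagon array of experiment 1 (0.060) or the combined-treatment array of experiment 1 (0.027).

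Akr1c14, a hydroxysteroid dehydrogenase of the aldo-keto reductase family, varied most of the 10 genes, over 1.65 log2 units. It was 3.84 with DMSO, 5.35 with glucagon, 4.01 with GW4064 and 4.90 with both in experiment 1 (probe set 17284919), and 5.21, 5.49, 5.20 and 5.40 in experiment 2. The 2 arrays of experiment 1 without glucagon were low, and the other 6 lay between 4.90 and 5.49. The 2 low values were close to dim, at percentiles 58.5 and 60.9 of their arrays. Glucagon differences were 1.51 and 0.89 in experiment 1 (without and with GW4064) and 0.27 and 0.20 in experiment 2. The pooled difference of 0.72 (SE 0.36, adjusted p = 0.426, 0.102 with the experiment as a block) did not pass. It was 0.37 without the DMSO array of experiment 1 and 0.42 without the GW4064 array of experiment 1. Without the DMSO or the GW4064 array of experiment 2 it was 1.06 and 1.01.

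The side chain is shortened in peroxisomes. Amacr, the racemase that turns the side chain to the form the oxidase accepts, varied least, over 0.24, with 5.78, 5.98, 5.86 and 5.86 in experiment 1 and 5.92, 5.90, 5.74 and 5.79 in experiment 2 (probe set 17310349). Its glucagon difference was 0.05 (SE 0.09, interval 0.902-fold to 1.2-fold) and its GW4064 difference -0.08 (SE 0.09, interval 0.818-fold to 1.09-fold), so changes beyond these bounds lie outside the intervals for this probe set.

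Acox2, the branched-chain oxidase that follows, was the 1 member lower with glucagon throughout. Its signal was 8.49 with DMSO, 8.21 with glucagon, 8.43 with GW4064 and 8.33 with both in experiment 1 (probe set 17303412), and 8.45, 8.26, 8.53 and 8.28 in experiment 2. The groups did not overlap: the highest array with glucagon lay at 8.33 and the lowest without at 8.43. The pooled difference was -0.20 (SE 0.08, unadjusted p = 0.0392), or 0.869-fold, and it did not pass over all genes (adjusted p = 0.313, 0.177 with the block). Of all tested genes, 6.88% were lower on all 4 glucagon arrays without overlap and 6.07% were higher, and of the 9 members 1 and 0 did so. The mean difference of Acox2 between the experiments was 0.01.

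Scp2, whose gene gives the peroxisomal thiolase that completes side-chain shortening and a sterol carrier protein, had the widest range after Akr1c14, 1.35. Signals were 9.30 with DMSO, 10.11 with glucagon, 9.23 with GW4064 and 10.04 with both in experiment 1 (probe set 17427994). In experiment 2 they were 10.27, 10.57, 10.39 and 10.52. Here too the 2 arrays of experiment 1 without glucagon were low, and glucagon differences were 0.81 and 0.82 in experiment 1 against 0.30 and 0.13 in experiment 2. The pooled difference of 0.51 (SE 0.32, adjusted p = 0.521) did not pass, nor did it with the experiment as a block (SE 0.14, adjusted p = 0.0839). With the block and without the GW4064 array of experiment 2, Scp2 passed (0.65, SE 0.12, adjusted p = 0.0249), in a fit that called 10.5% of all tested genes. Without the block, the difference was 0.22 without the GW4064 array of experiment 1 and 0.27 without the DMSO array of experiment 1. It was 0.80 without the GW4064 array and 0.76 without the DMSO array of experiment 2.

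The stretches before the transcription starts of Scp2 and Akr1c14, the members that varied most and were low on the same arrays, and of Acox2, the member lower with glucagon, are shown from RefSeq on GRCm38.p6. Each has the 250 bases before the annotated start, 5′ to 3′ on the strand of the gene, at chr4:108118548-108118797 (minus strand) for Scp2, chr13:4059341-4059590 (plus strand) for Akr1c14 and chr14:8259020-8259269 (minus strand) for Acox2. The windows of Scp2 and Akr1c14 lie inside the RefSeq spans of their genes, chr4:108043830-108144971 and chr13:4048991-4090560, and so precede an inner start. The stretches before the outer ends of these genes were not searched. The Acox2 window adjoins the outer end of its gene, at 8259019. Capitals mark TGACG, an arm of the cyclic AMP response element, or AGGTCA, a core bound by many nuclear receptors, on either strand.
Scp2: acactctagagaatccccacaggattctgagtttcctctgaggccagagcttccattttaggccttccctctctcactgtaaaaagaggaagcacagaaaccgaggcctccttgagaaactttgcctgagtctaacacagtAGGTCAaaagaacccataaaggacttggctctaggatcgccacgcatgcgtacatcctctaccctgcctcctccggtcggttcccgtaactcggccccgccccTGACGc
Akr1c14: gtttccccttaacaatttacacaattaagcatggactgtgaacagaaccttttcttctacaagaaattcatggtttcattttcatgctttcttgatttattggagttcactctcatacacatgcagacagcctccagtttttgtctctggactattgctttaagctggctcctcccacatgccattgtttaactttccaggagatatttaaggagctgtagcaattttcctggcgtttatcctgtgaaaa
Acox2: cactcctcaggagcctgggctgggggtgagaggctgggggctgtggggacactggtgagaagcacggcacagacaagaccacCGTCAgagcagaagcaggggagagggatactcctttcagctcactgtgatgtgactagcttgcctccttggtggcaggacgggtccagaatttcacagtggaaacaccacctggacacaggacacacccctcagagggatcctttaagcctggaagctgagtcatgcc
Scp2 held 1 TGACG, from -6 to -2 counted from the start, and 1 AGGTCA, from -109 to -104, and Acox2 held 1 TGACG on the opposite strand; Akr1c14 held neither. The window of the second Acox2 start, not shown, held neither, and that of Akr1d1 held 2 AGGTCA on the opposite strand. Among all 32851 windows of this length in the table, 17.8% held TGACG and 14% held AGGTCA. The table had entries for 7 of the 10 genes, in 8 windows, because Acox2 has 2; Cyp7a1, Cyp7b1 and Amacr had none. The whole cyclic AMP element TGACGTCA and the FXR inverted repeat, which is AGGTCA and its reverse complement with 1 base between them, were in 0 of the 8 windows and in 1.55% and 0.00609% of all. CAAAGTCCA, a core bound by HNF4, was in the Cyp8b1 window and in 0.384% of all. Also searched were TCAAGGTCA, the LRH-1 site, in 0 of the 8 windows and 0.387% of all, and the TATA box. The TATA box, TATAAA, was in the Cyp8b1 window and in 12.4% of all. The AGGTCA search overlaps the FXR repeat and the LRH-1 site, which contain it, and TGACG overlaps the whole element.

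Glucagon against its absence, over both backgrounds, addressed whether the fasting hormone moves this pathway. By limma, 0 of the 9 tested members passed, where 1.32% of all tested genes did (183 of 13844), and with the experiment as a block 0 members and 5.76% of genes passed. At an unadjusted p under 0.05 the count was 1 member, Acox2, and 4 with the block, which added Akr1c14, Scp2 and Cyp8b1; of all tested genes 14.5% and 22.4% had such a p. The members' median difference was 0.14, beside -0.00 over all tested genes. In the 4 comparisons within an experiment, 5 members were higher with glucagon in every one: Cyp27a1, Akr1c14, Scp2, Hsd3b7 and the dim Cyp8b1. In turn 1 member, Acox2, was lower in every one. All tested genes did so at 15.4% and 16.7%. Hsd3b7 owed its place to differences of 0.00 and 0.02 in experiment 2 and lost it with quantile normalization or with array medians subtracted. The 4 arrays of an experiment share 1 pool of cells, so these comparisons are not 4 independent ones.

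**Figure D2:**
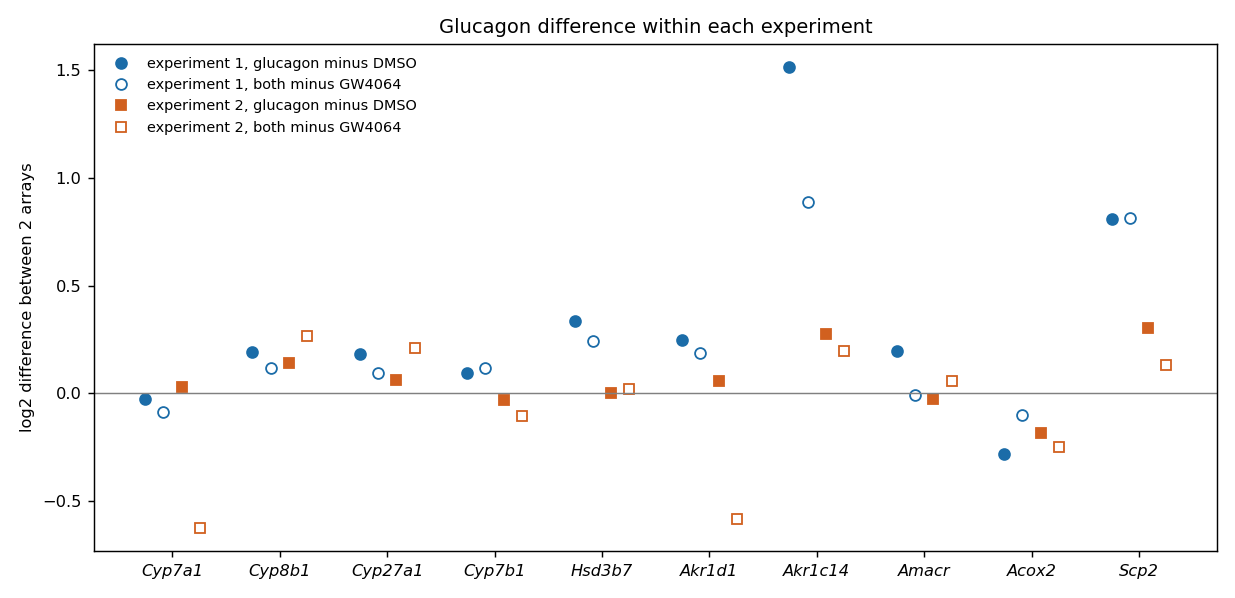
Log2 difference between the array with and the array without glucagon of the same experiment (vertical axis) for the 10 members (horizontal axis); filled symbols are glucagon minus DMSO, open symbols both agents minus GW4064, blue circles experiment 1 and orange squares experiment 2. Akr1c14 spreads from 0.20 to 1.51 and Scp2 from 0.13 to 0.82, with the larger values in experiment 1, while all 4 values of Acox2 are below 0.

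Group by group, glucagon against DMSO gave 0 of 9 members by limma, with 0.116% of genes called and 0.925% with the block; at an unadjusted p under 0.05 there were 0 members, and 2 with the block, where 6.7% and 13.1% of genes were. Akr1c14 differed by 0.89 (SE 0.51, interval 0.802-fold to 4.3-fold), Scp2 by 0.56 (SE 0.45, 0.702-fold to 3.08-fold) and Acox2 by -0.23 (SE 0.11, adjusted p = 0.824). With the block the log2 interval of Akr1c14 was 0.19 to 1.60 (SE 0.29, adjusted p = 0.266). That of Scp2 was 0.09 to 1.02 (SE 0.20, adjusted p = 0.298), and that of Acox2 -0.49 to 0.02 (SE 0.11, adjusted p = 0.433). Both agents against DMSO also gave 0 members, beside 0.123% of genes and 0.737% with the block, and both agents against GW4064 gave 0, beside 0.166% and 1.06%. Akr1c14 differed by 0.62 (SE 0.51) and 0.54 (SE 0.51) in these, Scp2 by 0.49 (SE 0.45) and 0.47 (SE 0.45), and Acox2 by -0.16 (SE 0.11) and -0.17 (SE 0.11). The block gave SEs of 0.29 for Akr1c14, 0.20 for Scp2 and 0.11 for Acox2 here too. These comparisons share arrays with each other, so their likeness is not separate evidence.

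GW4064 was used to ask how activated FXR, the receptor behind bile acid feedback, affects these cells. Over the 4 arrays with and the 4 without it, 0 members and 0% of all genes passed by limma, and 0 members had an unadjusted p under 0.05, also with the block, where 1.56% and 3.23% of genes had. Differences ran from -0.10 for Akr1c14 (SE 0.36) to 0.12 for Akr1d1 (SE 0.23), with a median of -0.02 beside -0.02 over all genes. No tested member was higher in all 4 within-experiment comparisons and none was lower in all 4, where 5.66% and 8.05% of genes were. With 1 mean per group the intervals were narrowest for Acox2, 0.901-fold to 1.17-fold, and Amacr, and widest for Akr1c14, 0.516-fold to 1.69-fold. With the block the narrowest was that of the dim Cyp8b1 (SE 0.074), closely followed by Acox2 (SE 0.075). The widest was again that of Akr1c14, -0.60 to 0.40 in log2 (SE 0.21). GW4064 against DMSO and both agents against glucagon each gave 0 members and 0% of genes. In the first, the member farthest from 0 was Akr1d1, at 0.30 (SE 0.33, 0.19 with the block). It differed by 0.08 in experiment 1 and 0.52 in experiment 2, whose GW4064 array stood apart. The interaction, the difference between the glucagon effects with and without GW4064, gave 0 members and 0% of genes. Akr1c14 had -0.35 (SE 0.73, 0.42 with the block) and Akr1d1 -0.35 (SE 0.46, 0.27 with the block).

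**Figure D3:**
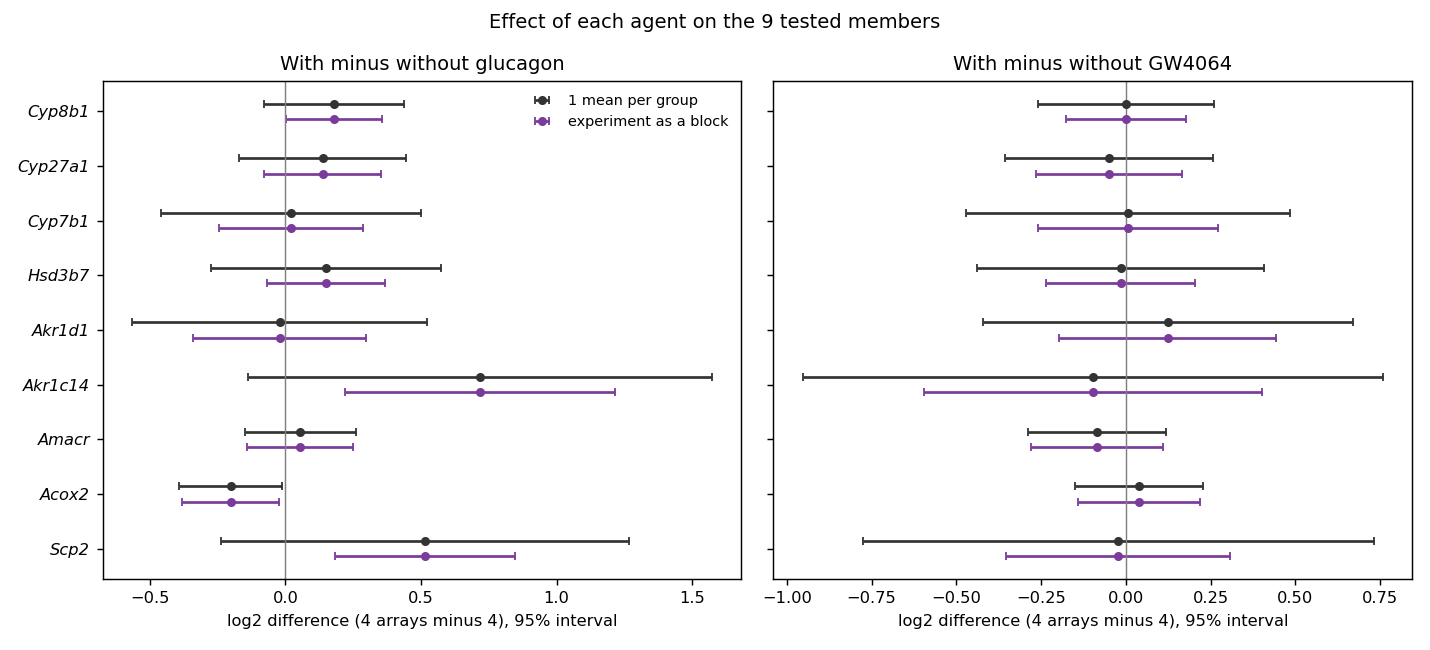
Log2 difference (horizontal axis) of the 9 tested members (vertical axis) for the 4 arrays with minus the 4 without glucagon, left, and with minus without GW4064, right; points are limma estimates and bars 95% intervals, in black with 1 mean per group and in purple with the experiment as a block. Only the interval of Acox2 lies wholly below 0 for glucagon with 1 mean per group, and with the block those of Akr1c14, Scp2 and Cyp8b1 lie above 0 too; none passed after adjustment over all genes.

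The members were mostly higher in experiment 2. Of the 10 members 7 were higher in experiment 2 with every treatment, whereas 13.8% of all tested genes were. The mean differences were largest for Akr1c14 (0.80) and Scp2 (0.77), followed by Akr1d1 (0.50), Cyp7b1 (0.45), Hsd3b7 (0.41), Cyp27a1 (0.24) and Cyp8b1 (0.20). Amacr (-0.03) and Acox2 (0.01) did not share this. Each experiment is 1 pool of cells, so no test was made. For Akr1c14 the difference between experiments was 1.28 on average without glucagon and 0.32 with it, and for Scp2 it was 1.06 and 0.47. Of the 9 tested members 4 had all arrays of experiment 2 above those of experiment 1 (Cyp7b1, Scp2, Akr1d1 and Hsd3b7) and 0 had them below, against 6.12% and 8.27% of all tested genes. Without the GW4064 array of experiment 2 there were 6, with Cyp27a1 and Cyp8b1 added, against 9.66% of all tested genes.

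The low values of Akr1c14 and Scp2 on the DMSO and GW4064 arrays of experiment 1 were part of an order that 6 of the 9 tested members shared, with both of these arrays below the other 6: Cyp27a1, Akr1c14, Scp2, Akr1d1, Hsd3b7 and Cyp8b1. Of these members Cyp8b1 was dim and Akr1d1 close to dim. Among all tested genes 9.99% had this order, which was picked after the values were seen. With quantile normalization 5 members and 11.7% of genes had it, and with array medians subtracted 4 members and 6.81%. The mean signal of 12 hepatocyte markers was also lowest on those arrays, at 9.60 with DMSO and 9.60 with GW4064, against 9.86 with glucagon and 9.86 with both in experiment 1 and 9.94 to 10.03 in experiment 2. Of 11 tested hepatocyte markers 5 had the order (Cps1, Apoa2, Hnf4a, Cyp2e1 and Tat) and 7 had all arrays of experiment 2 above those of experiment 1; 1 rose with glucagon, Tat, an amino acid enzyme induced by glucagon (adjusted p = 0.0465), and 2 with the block, which added Cps1 of the urea cycle (adjusted p = 0.0624, and 0.0240 with the block). Sinusoidal endothelium markers went the other way, with a mean of 4.86 to 4.90 in experiment 1 and 4.47 to 4.51 in experiment 2 over 8 genes, and Clec4g at background on every array. Kupffer cell and macrophage markers were at 4.21 to 4.28 and 4.35 to 4.48 over 9 genes. Of these, Adgre1 lay between 2.89 and 3.19, but Cd68 reached 10.1 to 10.8, and Marco, C1qa and C1qb were above the filter on all 8 arrays; of 8 tested, 4 had all arrays of experiment 2 above those of experiment 1. Stellate cell and fibroblast markers had means of 3.43 to 3.46 in experiment 1 and 3.42 to 3.50 in experiment 2 over 8 genes. Cholangiocyte markers were at 3.81 to 4.51 and 3.79 to 4.15 over 4 of 6. Lymphocyte and neutrophil markers were at 2.99 to 3.07 and 3.03 to 3.15 over 6 of 7. Lrat, Col3a1, Cd3e and S100a8 were at background on every array, whereas the cholangiocyte marker Sox9 (5.43 to 7.88), the fibroblast marker Dcn (4.69 to 5.72), Acta2 (4.55 to 5.06), Epcam (3.59 to 3.79), Nkg7 (3.40 to 3.68) and S100a9 (3.40 to 3.83) were above the filter on all 8 arrays. The part of the cell makeup in the members' levels was not tested, and in bulk RNA fewer cells of a type and less RNA per cell cannot be told apart.

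**Figure D4:**
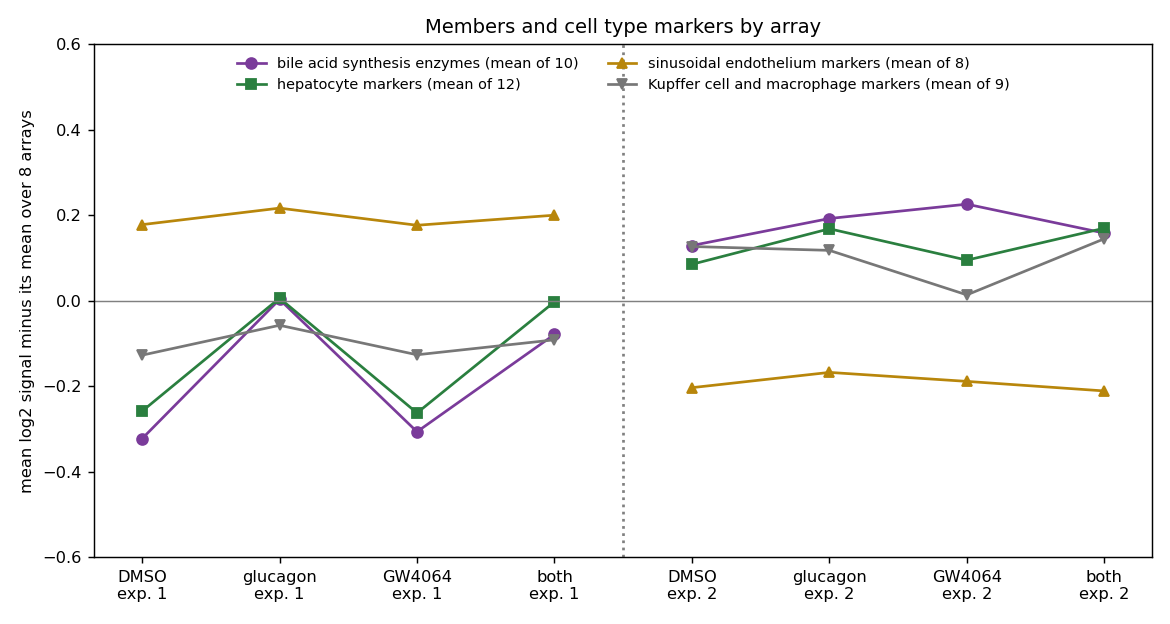
Mean log2 signal of the 10 members and of 3 marker lists, each minus its own mean over the 8 arrays (vertical axis), on each array (horizontal axis; the dotted line separates the experiments). The members and the hepatocyte markers are lowest on the DMSO and GW4064 arrays of experiment 1, and the endothelium markers are lower throughout experiment 2. The hepatocyte list includes Tat, which rose with glucagon, and Cps1, which did so with the experiment as a block. Alb, of the same list, differed with glucagon by 0.02 and -0.04 in experiment 1.

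Of 17 other genes of bile acid synthesis, conjugation and sterol delivery, 14 had a probe set and were tested. With glucagon over both backgrounds 1 rose and 0 fell, with a median of 0.03, where 1.32% of all tested genes were called. The 1 was Baat, the enzyme that joins bile acids to taurine or glycine, from 4.21 to 4.86 (0.65, SE 0.09, adjusted p = 0.0277), higher in both experiments (0.78 and 0.53); its adjusted p was 0.0564 to 0.161 when an array of DMSO, of glucagon or of both agents was left out, 1 at a time. The next by p was Cyp39a1, an oxysterol hydroxylase, at 0.31 (SE 0.18). With GW4064 0 of the 14 passed, and the smallest unadjusted p values were those of Baat at -0.29 (SE 0.09) and Acaa1a, a peroxisomal thiolase, at 0.14 (SE 0.13). Glucagon against DMSO gave 0 calls in this list, and 1 with the block, Baat (0.83, adjusted p = 0.108 and 0.0421). Both agents against DMSO, glucagon or GW4064, GW4064 against DMSO and the interaction gave 0.

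Of 22 regulators of the pathway, 20 were tested. With glucagon over both backgrounds 2 rose and 0 fell, with a median of 0.15, where 1.32% of all tested genes were called. Of the 2, Ppargc1a is also among the 6 glucagon check genes. Ppargc1a, the coactivator of fasting genes, rose by 3.46 (SE 0.30, adjusted p = 0.00589), and Prox1, a corepressor in hepatocytes, by 1.07 (SE 0.13, adjusted p = 0.0159; 0.0701 to 0.106 when an array of glucagon or of both agents was left out). With the block 3 rose, Foxa2 being the third (0.62, adjusted p = 0.0659 without and 0.0293 with the block). Ppargc1a also rose with both agents against DMSO (3.63, SE 0.42, adjusted p = 0.0494) and against GW4064 (3.76, SE 0.42, adjusted p = 0.0358), the latter joined by Prox1 with the block (1.08, adjusted p = 0.107 and 0.0486). Against DMSO alone glucagon gave 0, and 1 with the block, Ppargc1a (3.16, adjusted p = 0.062 and 0.000775). GW4064 gave 0 of 20 over both backgrounds, and the regulators with the smallest p were Nr1i2, the pregnane X receptor, at 0.98 (SE 0.22) and Nr0b2 at 0.34 (SE 0.12), higher in both experiments. GW4064 against DMSO, both agents against glucagon and the interaction gave 0 as well.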

How the data were processed

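The deposited values are log2 signals of Affymetrix MoGene 2.0 ST arrays, which the authors processed in GeneSpring with 2 technical replicates pooled per sample, per the labels. That the scale is log2 was read from the range of values. Not given in the sources used here: the software version and how background, summarisation and normalization were handled. Of 41345 probe sets, 23521 had 1 symbol, 1814 several and 16010 none. One probe set per gene, that of highest mean, was used (22180 genes), and 13844 passed the filter given in the report. The 10 members all matched RefSeq by gene identifier.

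Groups were compared with limma 3.58.1 in R 4.3.3, with 1 mean per group over 8 arrays (4 residual and 3.06 prior degrees of freedom), two-sided p-values adjusted by Benjamini and Hochberg over all tested genes, and calls at an adjusted p below 0.05. The fit with 1 mean per group was tested on simulated data for glucagon and GW4064 against DMSO. The simulated data held no difference between experiments, and the fit with the block was not tested so. The labels number the experiments, each with its own cell pool, which pairs the arrays: deviations from group means correlated at 0.350 to 0.620 within an experiment. Beside the main model, each comparison was refitted with a term for the experiment (block), which leaves 3 residual degrees of freedom. No measured column was left unused (0 of 8). Depth has no counterpart on arrays, and their number limits the precision. The members, lists and naming rule were chosen with earlier results of these data known. Named were all members, 5 check genes and, from the lists of other pathway genes and regulators, those past the threshold or, for either agent over both backgrounds, the 2 with the smallest p. Marker genes, and members that share an order of arrays, were named after their values were seen. Alternatives were other normalizations, filters, moderation, the block, and leaving out arrays.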

Additional observations from a re-analysis of the deposited data

Results flagged for a closer look

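Cyp7b1 differed with each agent in opposite directions in the 2 experiments. The mean GW4064 difference, over the backgrounds without and with glucagon, was -0.19 in experiment 1 and 0.21 in experiment 2, and the mean glucagon difference was 0.11 and -0.069. Akr1d1 had mean glucagon differences of 0.22 and -0.26, but its values in experiment 2 were themselves of opposite sign (0.06 and -0.58). Cyp27a1 differed in opposite directions with GW4064, at 0.080 and -0.18. The difference between experiments was not tested, because each experiment is 1 pool of cells.

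Cyp7a1 on the GW4064 array of experiment 2 lay apart from the other 3 arrays of that experiment: the gap to the nearest was 0.890 of the whole range, above Dixon's critical value for 4 samples. It was the 1 lone value among 20 sets of 4 arrays checked, and chance gives about 1 in 20. On that array the low-signal receptor probe sets had a median of 3.25, and Cyp7a1 had 3.38.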

How the results depend on the processing

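Over 19 settings and 8 contrasts, 149 fits were made, and 1 of them called a member. With the replicate block, fixed or random, over all 8 arrays 0 were called. The 1 fit was glucagon over both backgrounds with the block and without the GW4064 array of experiment 2, which called Scp2 (0.65, adjusted p = 0.0249). Leaving out any 1 array without the block gave 0 members in every contrast. The members' median difference between experiments, 0.32, was 0.38 with quantile normalization, 0.28 with array medians subtracted and 0.29 to 0.34 with 1 array left out.

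The signs of several small differences turned, and the cause was not tested. For GW4064 over both backgrounds, quantile normalization gave -0.030 for Cyp8b1, 0.0078 for Hsd3b7 and 0.0020 for Scp2, and subtracting array medians gave -0.033 for Cyp8b1 and -0.027 for Cyp7b1. With the block and without the GW4064 array of experiment 2, the values were 0.013 for Cyp27a1, -0.10 for Cyp7b1 and -0.030 for Akr1d1, and for glucagon 0.13 for Akr1d1. With 1 array left out, the GW4064 difference ranged from -0.44 to 0.25 for Akr1c14, -0.12 to 0.37 for Akr1d1, -0.16 to 0.058 for Cyp27a1, -0.18 to 0.20 for Cyp7b1, -0.070 to 0.072 for Cyp8b1, -0.17 to 0.14 for Hsd3b7 and -0.31 to 0.27 for Scp2. The glucagon difference ranged from -0.26 to 0.22 for Akr1d1, -0.17 to 0.21 for Cyp7b1 and -0.0038 to 0.30 for Hsd3b7. A lone array left in a group was assumed to vary like the other groups. Signal close to background limits Cyp7a1, Cyp8b1 and Akr1d1, and also Akr1c14 on the 2 arrays of experiment 1 without glucagon.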
